A study of Mus musculus with 19 samples.

Results

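The exon junction complex (EJC) was followed through 7 of its genes, *Eif4a3*, *Magoh*, *Magohb*, *Rbm8a*, *Casc3*, *Rnps1* and *Pym1*, out of 41388 genes counted in single mouse blastocysts. The genes were named by their role in the complex and matched by symbol. Whole blastocysts at E3.25 were sequenced as 1 library each, 8 of them *Upf2*-null (*Upf2*-/-) and 11 control (*Upf2*+/+). The comparison asks whether the transcripts of the complex that marks exon junctions differ in embryos that lack UPF2. In both groups, zygotes were taken from superovulated females 4 to 8 weeks old, cultured in M16 and collected 90 to 94 h after hCG, at the early blastocyst stage. The null allele lacks exons 2 and 3 of *Upf2*, whose flanking loxP sites were recombined by Cre under the *E2a* promoter in a C57BL/6 floxed line, and heterozygous mice were then bred. The methods of the study state that a truncated protein without NMD activity is still made from it, and UPF2 supplied by the heterozygous mother was not measured here. Each embryo was genotyped on its own cDNA, and litters, culture drops and sequencing dates are not given in the sources used here.

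The EJC is laid down on spliced mRNA just upstream of exon-exon junctions. Its core is the DEAD-box ATPase EIF4A3, which clamps the RNA and is locked there by the dimer of MAGOH, or its paralog MAGOHB, with RBM8A (Y14), while CASC3 (MLN51) stabilises the clamp. RNPS1 is a peripheral splicing partner, and PYM1 binds the MAGOH-RBM8A dimer at the ribosome and takes complexes apart. A complex left downstream of a stop codon is contacted through UPF3B and UPF2 by the helicase UPF1, which starts nonsense-mediated RNA decay (NMD).

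On GRCm38, *Eif4a3* lies on the minus strand of chromosome 11 from 119288363 to 119300089. *Magoh* lies on the plus strand of chromosome 4 from 107879755 to 107887424, and *Magohb* on the minus strand of chromosome 6 from 131284388 to 131293244. *Rbm8a* lies on the plus strand of chromosome 3 from 96629933 to 96633791. *Casc3* lies on the plus strand of chromosome 11 from 98804905 to 98833814, *Rnps1* on the plus strand of chromosome 17 from 24414565 to 24425901, and *Pym1* on the plus strand of chromosome 10 from 128747889 to 128766564. A read can be assigned to a gene only where its sequence is distinct. The first 120 bases of 3 coding sequences are therefore each shown beside a relative that was counted, with the bases that differ in capitals. Sequences are as annotated by GENCODE M21. The first pair holds the paralogs *Magoh* and *Magohb*, aligned from the *Magoh* start codon and from coding base 7 of *Magohb*.
Magoh: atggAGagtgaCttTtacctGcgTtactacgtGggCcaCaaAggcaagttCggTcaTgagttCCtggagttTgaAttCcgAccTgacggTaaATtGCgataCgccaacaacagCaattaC
Magohb: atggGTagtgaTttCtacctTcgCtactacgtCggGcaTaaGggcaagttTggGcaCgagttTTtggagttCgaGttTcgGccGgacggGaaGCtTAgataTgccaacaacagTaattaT
The second pair holds *Eif4a3* and its relative *Gm8994* on chromosome 6.
Eif4a3: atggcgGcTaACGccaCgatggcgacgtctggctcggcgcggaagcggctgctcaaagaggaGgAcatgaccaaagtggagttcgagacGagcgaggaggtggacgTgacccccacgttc
Gm8994: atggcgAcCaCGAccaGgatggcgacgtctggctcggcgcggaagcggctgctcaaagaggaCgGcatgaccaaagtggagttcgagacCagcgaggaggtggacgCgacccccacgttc
The third pair holds *Rbm8a* and its relative *Rbm8a2* on chromosome 1.
Rbm8a: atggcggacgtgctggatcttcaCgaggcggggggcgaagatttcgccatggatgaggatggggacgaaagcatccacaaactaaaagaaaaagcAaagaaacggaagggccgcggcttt
Rbm8a2: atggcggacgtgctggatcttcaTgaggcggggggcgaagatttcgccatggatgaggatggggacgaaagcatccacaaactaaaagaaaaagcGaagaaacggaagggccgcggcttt
*Magoh* and *Magohb* differed at 28 of these 120 bases and at 84 of 441 aligned coding bases in all, and 86.9% of those differences were at the third codon position. They shared no identical stretch of 50 bases. *Gm8994* differed from *Eif4a3* at 10 bases of the stretch and at 47 of 1236 in all. *Rbm8a2* differed from *Rbm8a* at 2 bases of the stretch and at 12 of 525 in all, with an identical run of 116 bases.

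The library totals ran from 4068350 to 5993745 counts in *Upf2*-null embryos and from 4056072 to 5854659 in controls, and all 7 genes passed the filter of at least 10 counts in at least 1 embryo, as did 17137 genes in all. The smallest count of any of the 7 genes in any embryo was 127. Summed markers of trophectoderm reached 920 CPM or more in every embryo and those of primitive endoderm 699 CPM. The 7 epiblast markers summed to 367 to 464 CPM in *Upf2*-null embryos and 429 to 824 CPM in controls, and their part in the differences below was not tested. The cumulus and granulosa cell markers summed to 10.6 to 75.9 CPM with *Fshr*, *Cyp19a1* and *Lhcgr* at 0. Only 1 of these 8 markers had a mean of at least 1 CPM. Each value is an average over a whole embryo, in which fewer cells of a type and less RNA per cell cannot be told apart. *Upf2* itself had means of 57.7 CPM in controls and 90.9 CPM in *Upf2*-null embryos, a gene count that takes in undeleted exons and so checks no genotype.

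None of the 7 EJC genes differed between the genotypes at an adjusted p under 0.1 by edgeR's quasi-likelihood test, where 0.193% of all genes tested did so. DESeq2 and limma voom also called 0 of the 7. Beside this, DESeq2 called 1.2% of the 14696 genes to which it gave an adjusted p, and limma voom 0.665% of all genes. At an unadjusted p under 0.05, edgeR gave 1 of the 7 genes, *Eif4a3*, beside 12.5% of all genes. The log2 fold changes (*Upf2*-null minus control) ran from -0.19 to 0.17 with a median of 0.01, beside -0.02 over all genes. They were above 0 for 4 genes and below 0 for 3.

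**Figure D1:**
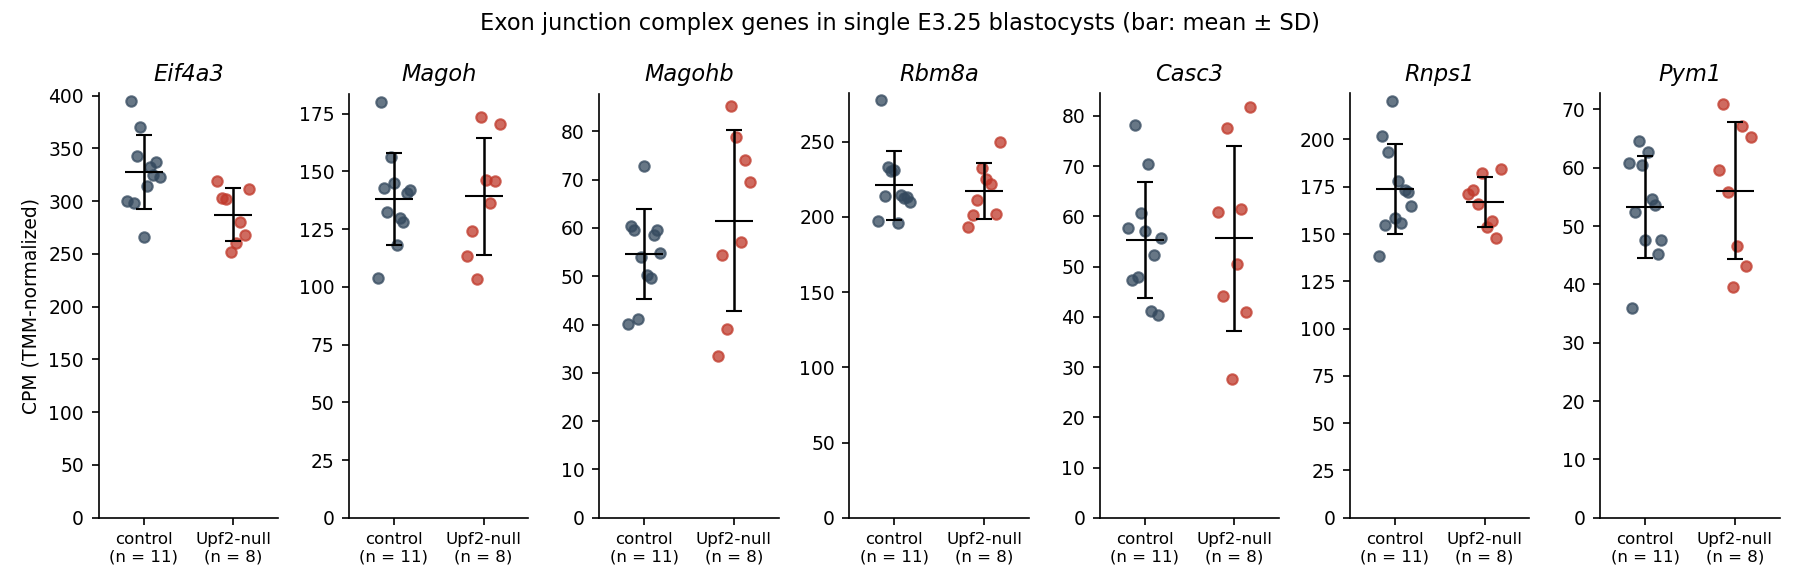
CPM (TMM-normalized, y axis from 0 in each panel) of the 7 EJC genes in each control (n = 11) and *Upf2*-null (n = 8) blastocyst, with the mean and SD as bars. The groups overlap in every panel, and for *Eif4a3* all 8 *Upf2*-null embryos lie below the control median of 324 CPM.

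*Eif4a3*, which encodes the ATPase at the centre of the complex, had the lowest p of the 7. Its lowest, median and highest values were 252, 291 and 319 CPM in *Upf2*-null embryos and 266, 324 and 395 CPM in controls. All 8 *Upf2*-null embryos were below the control median, but the groups overlapped, since control 6 was at 266 CPM and *Upf2*-null embryo 1 at 319 CPM. The mean was 287 CPM with an SD of 25.1 over the 8 nulls and 328 CPM with an SD of 35.0 over the 11 controls. The log2 fold change was -0.19 ± 0.07 (SE), or 0.877-fold, with a 95% interval from -0.34 to -0.04. This difference did not pass the test across all genes (edgeR adjusted p = 0.264, unadjusted p = 0.0143), and 7.38% of all genes had an unadjusted p under 0.05 in the same direction. Without control embryos 2, 4 and 5 and *Upf2*-null embryo 2, the log2 fold change was -0.14 (unadjusted edgeR p = 0.0648). Leaving out this set of 4 embryos was planned, and no criterion for it is given here. DESeq2 called *Eif4a3* without control embryo 6, the lowest control (log2 fold change -0.23, DESeq2 adjusted p = 0.0786), in a fit that called 250 of all genes, beside 176 with all embryos.

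None of the 3 genes whose products form the heterodimer that locks EIF4A3 on RNA passed the test. *Magoh* ranged from 103 through a median of 141 to 174 CPM in *Upf2*-null embryos and from 104 through 141 to 180 CPM in controls. The ranges nearly coincided, and the log2 fold change of 0.01 had a 95% interval from -0.22 to 0.24 (edgeR adjusted p = 0.992). *Magohb* ranged from 33.5 through 63.4 to 85.2 CPM in *Upf2*-null embryos and from 40.1 through 54.7 to 72.9 CPM in controls. The *Upf2*-null embryos held both the lowest and the highest values of this gene, and its log2 fold change of 0.17 had an interval from -0.20 to 0.54 (edgeR adjusted p = 0.828). The processed pseudogene *Gm44958*, which overlaps 520 bp of *Magohb* exons on the same strand, was not analysed here. *Rbm8a* ranged from 194 through 217 to 250 CPM in *Upf2*-null embryos and from 196 through 214 to 278 CPM in controls. The highest value was that of control embryo 2, and the log2 fold change of -0.03 had an interval from -0.17 to 0.12 (edgeR adjusted p = 0.962). For *Rbm8a* a change beyond 0.887-fold or 1.09-fold lay outside the interval, whereas for *Magohb* values from 0.873-fold to 1.45-fold lay within it.

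*Casc3*, the core subunit that stabilises the clamp, was the most variable of the 7 in *Upf2*-null embryos, with a coefficient of variation of 33.2% beside 20.9% in controls. It ranged from 27.6 through 55.7 to 81.7 CPM in *Upf2*-null embryos and from 40.4 through 55.6 to 78.1 CPM in controls. The control range lay inside that of the *Upf2*-null embryos, and the log2 fold change was 0.01 with an interval from -0.39 to 0.40 (edgeR adjusted p = 0.999). The antisense gene *Gm12359* overlaps *Casc3* exons over 494 bp, and the strand setting of the counting is not given in the sources used here. Its counts ran from 0 to 18 per embryo, against 127 to 446 for *Casc3*.

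The peripheral factors *Rnps1* and *Pym1* also did not pass the test. *Rnps1*, which couples the complex to splicing and decay factors, ranged from 148 through 169 to 184 CPM in *Upf2*-null embryos and from 139 through 172 to 220 CPM in controls. The *Upf2*-null values lay inside the control range, and the log2 fold change was -0.06 with an interval from -0.23 to 0.12 (edgeR adjusted p = 0.901). *Pym1*, the disassembly factor, ranged from 39.6 through 57.8 to 71.0 CPM in *Upf2*-null embryos and from 36.0 through 53.6 to 64.6 CPM in controls. The groups overlapped over most of their range, and the log2 fold change was 0.07 with an interval from -0.24 to 0.39 (edgeR adjusted p = 0.940).

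**Figure D2:**
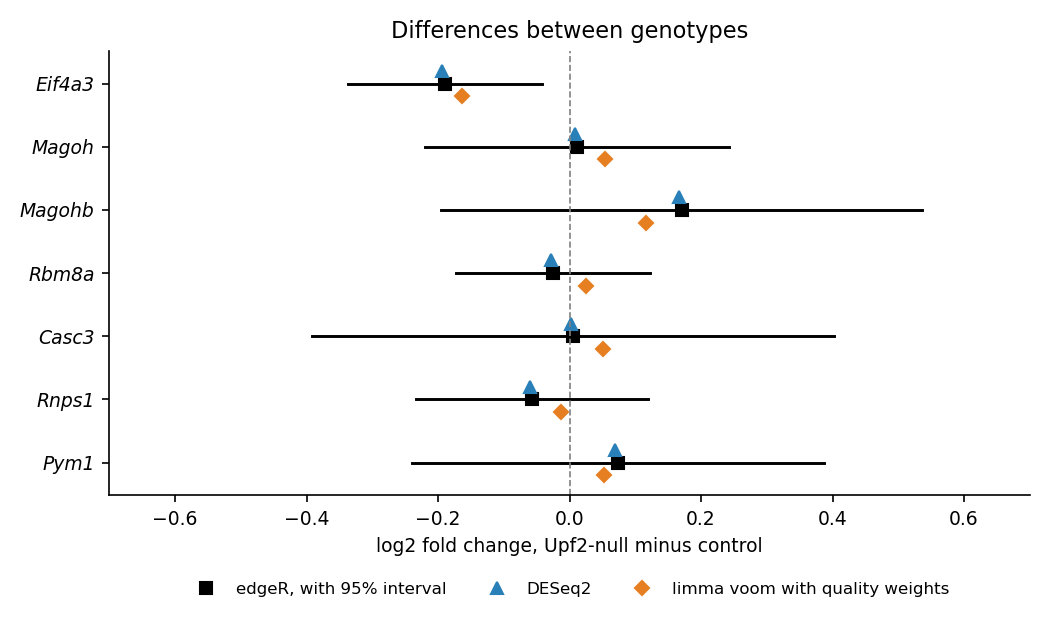
Log2 fold change (*Upf2*-null minus control, x axis) of the 7 EJC genes by edgeR with its 95% interval (squares and lines), by DESeq2 (triangles) and by limma voom with quality weights (diamonds). The *Eif4a3* interval, from -0.34 to -0.04, is the only one of the 7 that does not include 0.

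Transcript levels of the subunits were compared per kb of annotated exon, over all 19 embryos. *Magoh* was highest at 180 ± 28.0 CPM per kb (SD, n = 19), followed by *Eif4a3* at 146 ± 17.3, *Rbm8a* at 68.2 ± 6.42, *Pym1* at 41.0 ± 7.46, *Magohb* at 33.4 ± 8.14, *Rnps1* at 33.3 ± 3.85 and *Casc3* at 12.9 ± 3.34 CPM per kb. The highest mean was 14.0-fold above the lowest. *Magoh* was above *Eif4a3* in 16 of 19 embryos, *Pym1* above *Magohb* in 13 and *Magohb* above *Rnps1* in 9, with overlapping ranges for each of these pairs. Per kb of the longest annotated transcript these numbers were 7, 5 and 4. In contrast, *Eif4a3* exceeded *Rbm8a*, *Rbm8a* exceeded *Pym1*, and *Rnps1* exceeded *Casc3* in 19 of 19 embryos. *Casc3* was the lowest of the core subunits by either length.

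Part of this order depended on the length used. Per kb of the longest annotated transcript, *Eif4a3* (206 CPM per kb) and *Magoh* (200) changed places, and *Rnps1* moved up 3 places, to 81.1 CPM per kb. The annotated exons of *Rnps1* span 5131 bp, but its longest transcript has 2106 bp. That transcript is annotated as a retained intron of 1 exon, and the longest coding transcript of *Rnps1* has 1920 bp. *Rbm8a* was then at 79.6, *Magohb* at 64.1, *Pym1* at 47.0 and *Casc3* at 14.0 CPM per kb. Both lengths were taken from GENCODE M21, whereas the methods of the study name only Ensembl GRCm38 for the counts. At *Rnps1*, GENCODE M21 has 11 transcripts, and the transcript models that the authors merged over all embryos hold 3 annotated identifiers. The part of the annotation release in this order was not tested. The authors removed PCR duplicates without molecular identifiers, and 4884 was the highest count reached in the table. The counts of *Eif4a3* reached 1817, and how far the removal lowered the more abundant members was not tested.

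**Figure D3:**
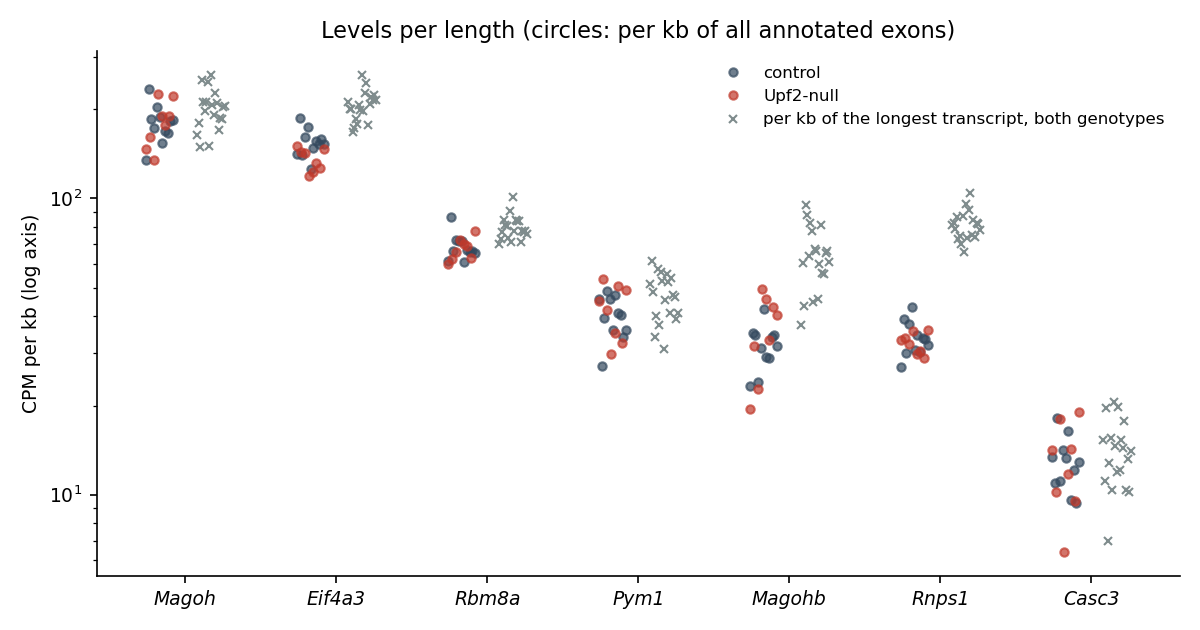
CPM per kb on a log axis for the 7 EJC genes, ordered by their mean, per kb of all annotated exons (circles, coloured by genotype) and per kb of the longest annotated transcript (crosses, both genotypes). *Magoh* and *Eif4a3* lie at the top and *Casc3* at the bottom by either length, while *Rnps1* moves from 33.3 to 81.1 CPM per kb.

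*Magoh* and *Magohb* encode interchangeable partners of RBM8A, so their balance was taken as the share of *Magohb* in the counts of both. *Magoh* was counted above *Magohb* in 19 of 19 embryos, and per kb it was 5.38-fold higher (3.12-fold by the longest transcript). The pseudogene *Gm44958* overlaps 520 of the 1720 bp of *Magohb* exons, and its part in these ratios and in the share was not tested. The share of *Magohb* ran from 22.8% through a median of 30.0% to 35.0% in *Upf2*-null embryos and from 23.7% through 27.9% to 33.5% in controls. *Upf2*-null embryo 1, with 174 of 763 counts, had the lowest share of all (22.8%, 95% Wilson interval 20.0% to 25.9%), and *Upf2*-null embryo 5, with 401 of 1145 counts, the highest (35.0%, 32.3% to 37.8%). These intervals cover counting error only. The mean was 30.1% ± 3.91 (SD, n = 8) against 28.3% ± 2.85 (SD, n = 11), a difference of 1.77 percentage points that did not exceed the spread between embryos (two-sided exact permutation test over 75582 arrangements, p = 0.267). Without the 4 embryos named above for *Eif4a3*, the difference was 0.386 points (exact permutation p = 0.830). Without *Upf2*-null embryo 1 it was 2.81 points (exact permutation p = 0.0574).

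Across the 19 embryos, *Magoh* varied together with each of the other heterodimer genes. Of the 21 pairs among the 7 genes, 3 had correlated log2 CPM at an adjusted p under 0.05. *Magoh* and *Rbm8a* had Pearson's r = 0.784 (permutation test, adjusted p = 0.00126) and Spearman's rho = 0.751 (adjusted p = 0.00504), and r = 0.830 without the 2 embryos farthest from the *Magoh* median. *Magoh* and *Magohb* had r = 0.768 (permutation adjusted p = 0.00126) and rho = 0.814 (adjusted p = 0.00105), with r = 0.681 without 2 embryos. The remaining pair of the heterodimer, *Magohb* and *Rbm8a*, did not pass (r = 0.432, rho = 0.505, permutation adjusted p = 0.133). *Eif4a3* and *Rnps1* had r = 0.624 (permutation adjusted p = 0.0327) and rho = 0.579 (adjusted p = 0.0573), with r = 0.719 without 2 embryos. The median r of the 21 pairs was 0.05. Within the genotypes, *Magoh* and *Rbm8a* had r = 0.738 in *Upf2*-null embryos and 0.853 in controls, and *Magoh* and *Magohb* had 0.894 and 0.619. *Eif4a3* and *Rnps1* had 0.376 and 0.765, and r = 0.236 without the 4 embryos named above.

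Log2 CPM of the heterodimer genes was lower where the library total of counts was higher. Against the log2 library total, over 7 relations, *Magoh* had r = -0.773 (rho = -0.768, permutation adjusted p = 0.00077), *Rbm8a* r = -0.773 (rho = -0.795, permutation adjusted p = 0.00035) and *Magohb* r = -0.607 (rho = -0.637, permutation adjusted p = 0.0143), and the other 4 genes did not pass the test. Without the 2 embryos farthest from the median total these were -0.770, -0.833 and -0.498. The raw count of *Rbm8a* was between 981 and 1215 in every embryo. CPM has the total in its divisor, and the part of this in the relation was not tested. Over the 9245 genes with a mean of at least 10 CPM the median r with the total was 0.02, and 47.8% were below 0. Of these genes, 4.50% had a lower r with the total than *Magoh*, 4.52% than *Rbm8a* and 9.40% than *Magohb*. With the library total regressed out, *Magoh* and *Rbm8a* had r = 0.463 (permutation adjusted p = 0.118) and *Magoh* and *Magohb* r = 0.593 (permutation adjusted p = 0.0514), so neither pair passed. *Magohb* and *Rbm8a* then had r = -0.07 (permutation adjusted p = 0.845), whereas *Eif4a3* and *Rnps1* kept r = 0.654 (permutation adjusted p = 0.0292) and *Rbm8a* and *Rnps1* had r = 0.645 (permutation adjusted p = 0.0292).

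**Figure D4:**
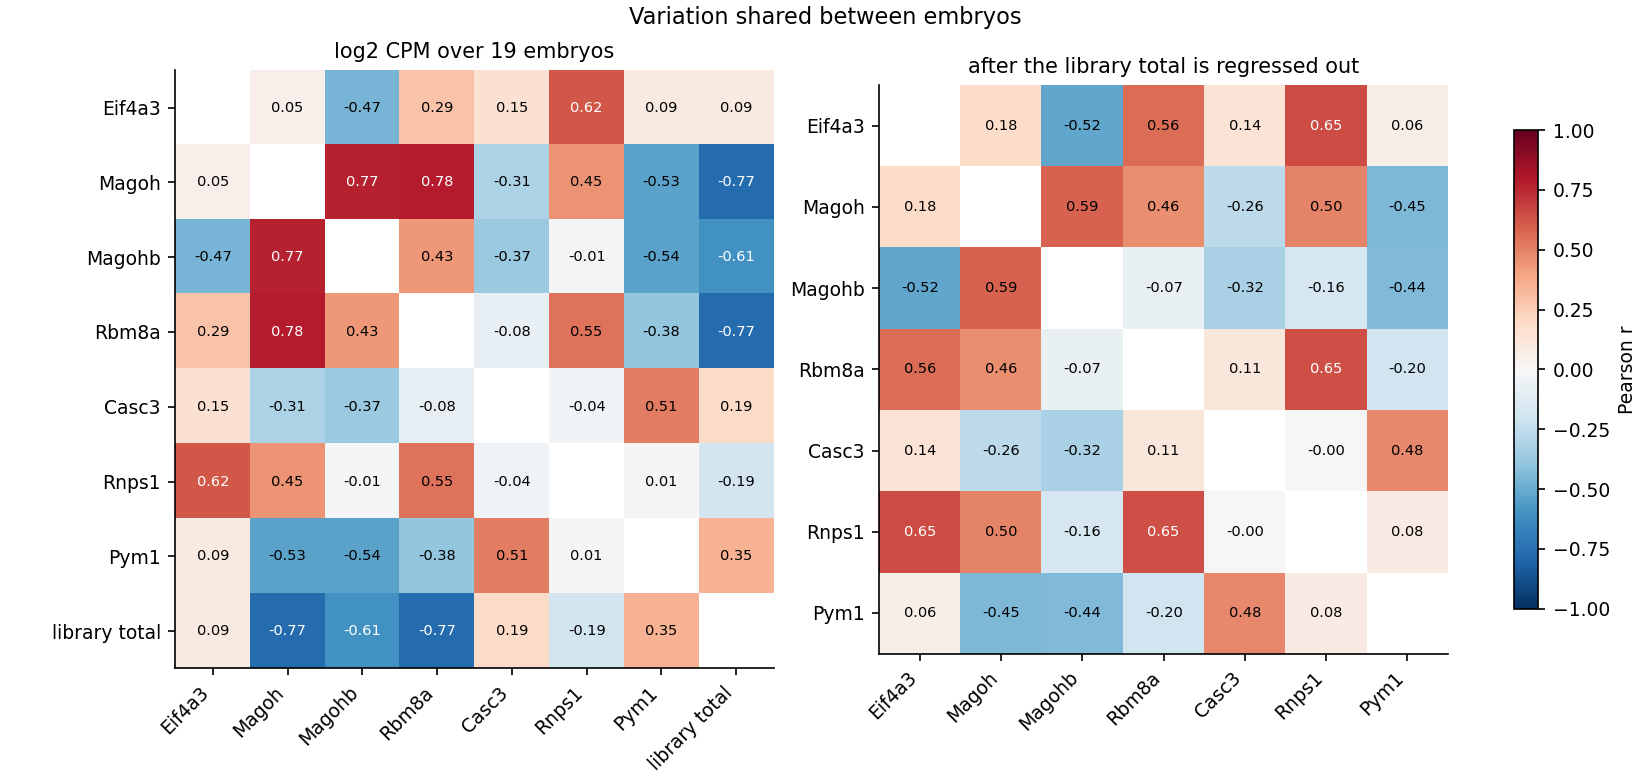
Pearson's r between the 7 EJC genes over 19 embryos, as log2 CPM with the log2 library total as an 8th variable (left) and after the total was regressed out of each gene (right), from blue (-1) to red (1). *Magoh*, *Magohb* and *Rbm8a* all have r below -0.6 with the total on the left, and their r with each other is lower on the right, where that of *Magohb* and *Rbm8a* is -0.07.

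Other genes followed the members more closely than the members followed each other. Of 9244 other genes, 3.95% had a higher r with *Magoh* than *Rbm8a* had, and 1.46% had a higher r with *Magohb* than *Magoh* had. Among all genes with a mean of at least 10 CPM, the gene most like *Eif4a3* over the 19 embryos was *Serbp1* (r = 0.943), and that most like *Magoh* was *Dpy30* (r = 0.934). *Mrpl41* was most like *Magohb* (r = 0.889), *Hprt* most like *Rbm8a* (r = 0.896), *Mrto4* most like *Rnps1* (r = 0.885) and *Tedc1* most like *Pym1* (r = 0.867). For *Casc3* the highest was *Sec24b* at r = 0.772, the lowest of the 7 maxima.

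Near-identical copies of 3 members reached at least 10 counts in an embryo, and reads could be exchanged between a copy and its parent. *Gm9825*, a processed pseudogene of *Rnps1* on chromosome 6, was 99.4% identical to it over 91.8% of the coding sequence and had 16 to 39 counts per embryo, beside 672 to 1028 for *Rnps1*. *Rbm8a2*, 97.7% identical to *Rbm8a*, had 60 counts in control embryo 11, 130 in control 2 and 472 in control 4, and 19 to 61 in the other 16 embryos. *Gm8994*, 96.2% identical to *Eif4a3*, had 91 counts in control embryo 11, 317 in control 4 and 636 in control 2, and 0 to 23 in the other 16. These 3 controls held 92.1% of all *Gm8994* counts and 52.3% of all *Rbm8a2* counts, while *Eif4a3* itself was at 395, 342 and 323 CPM in controls 2, 4 and 11.

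The copies did not pass edgeR's test either. *Gm8994* averaged 0.660 CPM (SD 0.779) in the 8 nulls and 23.6 CPM (SD 50.4) in the 11 controls. Its log2 fold change was -5.09 with a 95% interval from -7.86 to -2.33 (edgeR adjusted p = 0.160). DESeq2 called it (log2 fold change -3.74, adjusted p = 0.0202) and limma voom did not (adjusted p = 0.493). The groups overlapped, since control 9 had 1 count. *Rbm8a2* had a log2 fold change of -1.31 by edgeR (adjusted p = 0.322) and -0.46 by DESeq2 (adjusted p = 0.796), and *Gm9825* one of -0.03 by edgeR (adjusted p = 0.993). Of every possible stretch of 50 bases in the parent coding sequence, *Gm8994* shared 13.7%, *Rbm8a2* 30.7% and *Gm9825* 65.9%. A stretch of that length in these parts could not be assigned to either gene. For stretches of 100 bases the shares were lower, at 1.8%, 4.0% and 40.8%. With the counts of the copies added to those of their parents, the log2 fold change of *Eif4a3* was -0.29 (edgeR adjusted p = 0.264), and without controls 2, 4 and 11 it was -0.16 (adjusted p = 0.545). *Gm5580* and *Gm5576*, 2 further relatives of *Eif4a3*, and *Gm9353*, one of *Pym1*, were not analysed here. The first 2 are each 96.8% identical to the *Eif4a3* coding sequence, closer than *Gm8994*.

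**Figure D5:**
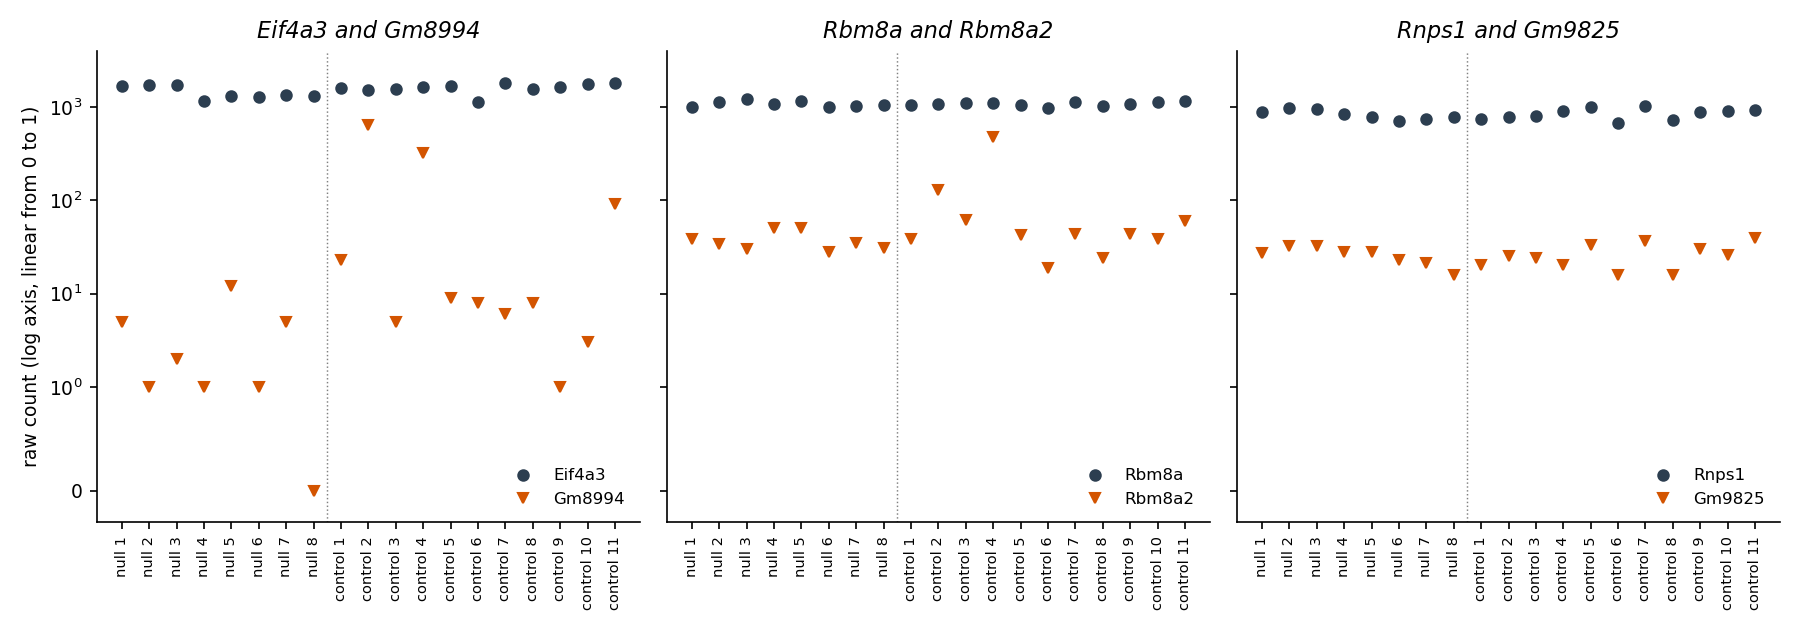
Raw counts per embryo (log axis, linear between 0 and 1) of *Eif4a3*, *Rbm8a* and *Rnps1* (circles) and of their copies *Gm8994*, *Rbm8a2* and *Gm9825* (triangles), with the 8 *Upf2*-null embryos left of the dotted line and the 11 controls right of it. *Gm8994* and *Rbm8a2* are highest in controls 2 and 4, and *Gm9825* stays between 16 and 39 counts.

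Transcripts annotated as targets of NMD were found for 1 of the 7 genes. *Magohb* has 3 transcripts annotated as nonsense-mediated decay among 7, each with an exon junction at least 50 nt past its stop codon, and the other 6 genes have none. Other features that can make an mRNA a target, such as a long 3′ UTR, were not tested. The annotated 3′ UTRs of coding transcripts ran from 2057 to 2219 bp for *Rbm8a* and from 1588 to 1596 bp for *Casc3*. Those of the other genes ran from 24 bp (*Magohb*) to 949 bp (*Pym1*). Retained-intron transcripts are annotated for *Magohb* (2), *Rbm8a* (2) and *Rnps1* (6), without a stop codon to place. The gene counts of *Magohb* sum all 7 transcripts, and its log2 fold change of 0.17 did not pass the test, as given above. In the transcript models that the authors merged over all embryos, 15 models without an annotated identifier lay at *Rnps1*, 9 at *Rbm8a*, 5 each at *Eif4a3*, *Magoh* and *Pym1*, and 2 each at *Magohb* and *Casc3*. An intron of a coding transcript was retained in 3 of those at *Rnps1*, 1 at *Rbm8a* and 1 at *Pym1*. The merged models carry no value per embryo, so no isoform was compared between genotypes.

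The partners of the complex were taken as 6 lists with 49 genes, of which 47 were tested and *Ddx39a* and *Zc3h11a* matched no symbol. By edgeR 0 of the 47 passed the threshold, and 1 of them, *Upf2*, had an unadjusted p under 0.05, which is 2.13% of them, beside 0.193% and 12.5% of all genes. DESeq2 and limma voom each called 1 gene, beside 1.2% of the genes with a DESeq2 adjusted p and 0.665% of all genes by limma voom. It was *Upf2* (edgeR log2 fold change 0.66, adjusted p = 0.185, DESeq2 adjusted p = 0.0416, limma voom adjusted p = 0.0211), the gene that carries the deletion. The log2 fold changes were above 0 for 23 partners and below 0 for 24, with a median near 0.

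By role, the 3 partners that form the ASAP and PSAP complexes with RNPS1 had log2 fold changes from -0.29 (*Pnn*) to 0.07 (*Sap18*). Among the 9 spliceosomal loading factors, *Cwc22*, which brings EIF4A3 to the spliceosome, had the lowest p (log2 fold change -0.57, edgeR adjusted p = 0.569), and *Srsf7* followed (0.07, adjusted p = 0.816). Among the 17 tested TREX and export genes, 12 were below 0 and 5 above, and *Ncbp1*, a subunit of the nuclear cap-binding complex, and *Sarnp* had the lowest p (-0.34, adjusted p = 0.441, and 0.15, adjusted p = 0.656, by edgeR). Among the 15 NMD factors 11 were above 0, with a median of 0.21 beside -0.02 over all genes, and only *Upf2* had an unadjusted p under 0.05. *Smg9*, a regulator of the SMG1 kinase, followed it (0.73, edgeR adjusted p = 0.472), and *Upf3b*, which bridges the EJC to UPF2, was at 0.29 (95% interval -0.04 to 0.62, edgeR adjusted p = 0.497). The translation factor relatives of *Eif4a3* were at -0.06 (*Eif4a1*) and 0.09 (*Eif4a2*), and *Ipo13*, the importin of the MAGOH-RBM8A dimer, was at -0.04, none past the test.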

How the data were processed

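Whole E3.25 blastocysts (8 *Upf2*-null, 11 control) were sequenced as 1 library each from full-length cDNA. Adapter-trimmed read pairs were mapped by the authors with STAR 2.5.2a (GRCm38), PCR duplicates were dropped, and the deposited raw counts per Ensembl gene come from featureCounts. The authors' merged transcript models hold exon positions on mm10 only, and their scaled table of the same counts was not used. Genotypes came from the labels.

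A gene entered the edgeR 4.0.16 fit (TMM, glmQLFit with robust = TRUE, genotype as the only term) if 1 embryo or more had 10 counts, with Benjamini-Hochberg adjustment over all 17137 genes and a threshold of 0.1. DESeq2 1.42.0 and limma 3.58.1 (voom with quality weights) were alternatives, beside other scalings, filters, covariates and embryos left out. Log2 CPM used a prior count of 2. The *Magohb* share was compared by an exact permutation test and correlations by 100000 permutations (scipy 1.17.1), adjusted over 21 pairs or 7 relations. Copies were found with BLAST 2.17.0 at 80% identity over 50% of a coding sequence. The fits were tested on simulated data, on which DESeq2 made more false calls than its threshold allows.

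The 7 genes and the lists were chosen with earlier results of these data known. The text names the members, *Upf2*, copies with at least 10 counts in 1 embryo, the 2 partners with the lowest p in each list, and for each member the gene with the highest r. *Upf3b*, *Gm12359* and the genes most like the copies were chosen after their values were seen. Embryos are separate animals. As a check for 1 library present under 2 names, any 2 embryos of a genotype gave a chi-square per gene of at least 10.0.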

Additional observations from a re-analysis of the deposited data

Results flagged for a closer look

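In *Upf2*-null embryo 5 the *Eif4a3* copy *Gm8994* was at 2.36 CPM, from 12 counts, and the next of the 8 *Upf2*-null embryos was at 0.995 CPM. The gap to that embryo was 0.578 of the range of the group, above the 95% critical value of 0.526 for 8 samples in Dixon's test. Of 11 sets of 8 *Upf2*-null values examined (7 members, 3 copies and the *Magohb* share), this was the only one. Chance alone gives such a value in about 1 of 20 sets if the values are normally distributed. The *Gm8994* counts of these 8 embryos ran only from 0 to 12, and the rate for such low counts was not tested. The values of the 11 controls were not tested in this way. Their highest *Gm8994* values were 163.5 CPM in control 2 and 66.9 CPM in control 4. Those of *Rbm8a2* were 99.7 CPM in control 4 and 33.4 CPM in control 2. Those of *Gm9825* were 7.29 CPM in control 5 and 7.00 CPM in control 11.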

How the results depend on the processing

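No EJC gene was called in 48 of 49 alternatives, and the count was 0 to 1 with an embryo left out (edgeR or DESeq2), the 1 being *Eif4a3* by DESeq2 without control embryo 6, where 250 of all genes were called. Its log2 fold change kept its sign throughout, from -0.23 to -0.17 with an embryo left out (adjusted p 0.0786 to 0.507). Of 343 fold changes under alternatives, 305 kept their sign. Those that turned lay near 0. *Magoh* (0.0114) was at -0.0102 with the library total as covariate and -0.0414 to 0.0634 with an embryo left out. *Rbm8a* (-0.0253) was at 0.0249 by limma voom and 0.0484 without the 4 embryos named above. It was at 0.0143 without controls 2, 4 and 11 and -0.0617 to 0.00607 with an embryo left out. *Casc3* (0.00596) was at -0.10 with the replicate block and -0.0488 without controls 2, 4 and 11. It ran from -0.10 to 0.11 with an embryo left out. *Rnps1* (-0.0569) was at 0.0284 without the 4 embryos. The partner count was 1 by DESeq2 and 1 by limma voom. In controls alone 1 pair of members was correlated past the threshold. By the longest transcript, *Eif4a3* was at 205.8, *Rbm8a* at 79.6, *Magohb* at 64.1 and *Rnps1* at 81.1 CPM per kb. Over all genes edgeR called 33, 14 to 43 with an embryo left out, 51 with the library total, 55 without the 4 embryos, 11 at a threshold of 0.05 and 0 with the replicate block, beside 176 by DESeq2 (117 to 275 with an embryo left out) and 114 by limma voom. The label numbers do not pair embryos (r of same-numbered embryos from -0.14 to 0.07, own number best in 0 of 8 pairs). The replicate block changed no call among the 7 genes, and gave a *Magohb* share difference of 2.26 points (exact permutation p = 0.297). Scaling by ERCC spike-ins could not be run, since the gene counts used here include none for the spike-ins. Leaving out controls 2, 4 and 11, adding copy counts, DESeq2 with an embryo left out and the regression on the library total were chosen after seeing the data. The 95% intervals of *Magohb*, *Casc3* and *Pym1* reach 1.45-fold, 1.32-fold and 1.31-fold upward.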

Other observations

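The copies of *Eif4a3* and *Rbm8a* followed other genes than their parents did. Over the 19 embryos, *Gm8994* was most like *D5Ertd577e* (r = 0.893, rho = 0.814) and *Obox6* (r = 0.886, rho = 0.737), among genes with a mean of at least 10 CPM. *Rbm8a2* was most like a gene without a symbol (r = 0.888, rho = 0.616), *Zfp353-ps* (r = 0.879) and *Zfp352* (r = 0.868), and its rho of 0.200 and 0.191 with the last 2 shows that these values of r rest on a few embryos. *Gm9825* was most like *Seh1l* (r = 0.743).

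*Gm12359*, the antisense gene that overlaps *Casc3*, was counted 2 times in the 8 nulls summed and 82 times in the 11 controls. Its log2 fold change was -4.33 by edgeR (adjusted p = 0.185) and -4.64 by DESeq2 (adjusted p = 0.0421), and limma voom gave -2.32 (adjusted p = 0.281). All 8 *Upf2*-null embryos were below the control median of 1.48 CPM, and the groups overlapped because some controls had 0 counts. The gene was picked after its values were seen, at counts too low for a firm value.

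Pairs of members differed in r between the genotypes. *Eif4a3* and *Pym1* had r = 0.796 among the 8 nulls against -0.251 among the 11 controls, and *Eif4a3* and *Casc3* had 0.730 and -0.417. Whether these differ was not tested, and both pairs were picked after their values were seen.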
